A study of Homo sapiens with 24 samples.

Results

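Collagens are the main structural proteins of the extracellular matrix. The text below describes the 43 collagen genes measured in the human cell line AC16, among 22260 genes in all. AC16 is known as a ventricular cardiomyocyte line, but 3 of 17 cardiomyocyte markers and 10 of 13 fibroblast markers passed the filter described below. A gene was included when its platform annotation symbol read COL, digits, A and digits, and its value was the median of the probe sets that carry that symbol alone. The 43 genes held 1286 such probe sets. COL26A1 was left out, since its 9 probe sets carry a second symbol, and 7 further probe sets that list COL1A2 or COL14A1 beside another gene were also left out (3 and 4, respectively).

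Every group was an AC16 culture synchronized with 100 nM dexamethasone, a synthetic glucocorticoid, for 2 h, so the controls received it too. Untreated cells made up the T0 and T16 groups. At both T4 and T20 there was a vehicle group and a group for each of 2 doses of digoxin, 0.5 and 5 µM. Digoxin, a glycoside used in heart failure, blocks the pump that exchanges sodium for potassium. Each of the 8 groups had 3 arrays, 24 in all, and the labels do not say whether the 3 came from separate cultures, so the p-values measure the spread between these arrays. The sample labels place the T4 and T20 collections 4 h after vehicle or digoxin, while the growth protocol counts 4, 16 and 20 h after treatment although T16 cells were untreated, so the hours of exposure cannot be settled. T4 vehicle against T0 and T20 vehicle against T16 change time and vehicle together.

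A collagen molecule is a triple helix of 3 alpha chains that can come from 1, 2 or 3 genes. The fibrillar types I, III and V form the fibrils of connective tissue. Type IV forms the sheets of basement membranes, type VI forms beaded filaments near cells, and the FACIT collagens sit on the surface of fibrils. The chains are folded, hydroxylated and crosslinked by dedicated enzymes. In the heart, fibroblasts are the main source of fibrillar collagen.

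All values are log2 values as deposited, quantile normalized between arrays, and a difference is a difference of group means on that log2 scale. The deposited values reach 19.93, above what a 16-bit scanner gives, so differences are not turned into linear folds. A gene was tested when at least 1 group had a mean of 6.02 or more, which is the median over all gene values, and 11911 genes were tested with limma on all 24 arrays. A gene was called at a Benjamini-Hochberg adjusted p under 0.05 over all genes tested in a comparison, two-sided. Arrays of one group correlated at 0.980 to 0.988 and no 2 arrays were identical. Of 17 cardiomyocyte markers 3 passed the filter (TNNC1, MYL2 and GATA4), and the sarcomere genes MYH6, MYH7, TNNT2, TNNI3, ACTN2 and TTN did not, while 10 of 13 fibroblast markers, 4 of 6 smooth muscle markers, 1 of 6 endothelial markers and 0 of 5 leukocyte markers did.

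Of the 43 collagen genes 19 passed the filter on low values. They were 7 of 11 fibrillar genes (COL1A1, COL1A2, COL3A1, COL5A1, COL5A2, COL11A1 and COL11A2), 3 of 6 type IV genes (COL4A1, COL4A2 and COL4A5), 3 of 5 type VI genes (COL6A1, COL6A2 and COL6A3), 2 of 10 FACIT genes (COL12A1 and COL16A1), the type VIII network genes COL8A1 and COL8A2, the transmembrane collagen gene COL13A1, and COL7A1, which encodes the anchoring fibril collagen of skin. The other 24 were COL2A1, COL24A1, COL27A1 and COL5A3 among the fibrillar genes, COL4A3, COL4A4 and COL4A6, COL6A5 and COL6A6, the FACIT genes COL9A1, COL9A2, COL9A3, COL14A1, COL19A1, COL20A1, COL21A1 and COL22A1, the network gene COL10A1, the transmembrane genes COL17A1, COL23A1 and COL25A1, the multiplexin genes COL15A1 and COL18A1, and COL28A1. Their group means ran from 3.42 to 6.00, near the array medians of 23 background control probe sets, which ran from 4.27 to 4.96. COL11A2 lay just inside the filter with a highest group mean of 6.14, and COL23A1 lay just outside it at 6.00. COL11A2 reached the filter in 1 group, COL4A5 and COL8A2 in 3 and COL16A1 in 6, so these 4 genes were close to the limit of what was measured. COL7A1 reached it in all 8 groups but also lay near it, with group means from 6.09 to 6.49.

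**Figure D1:**
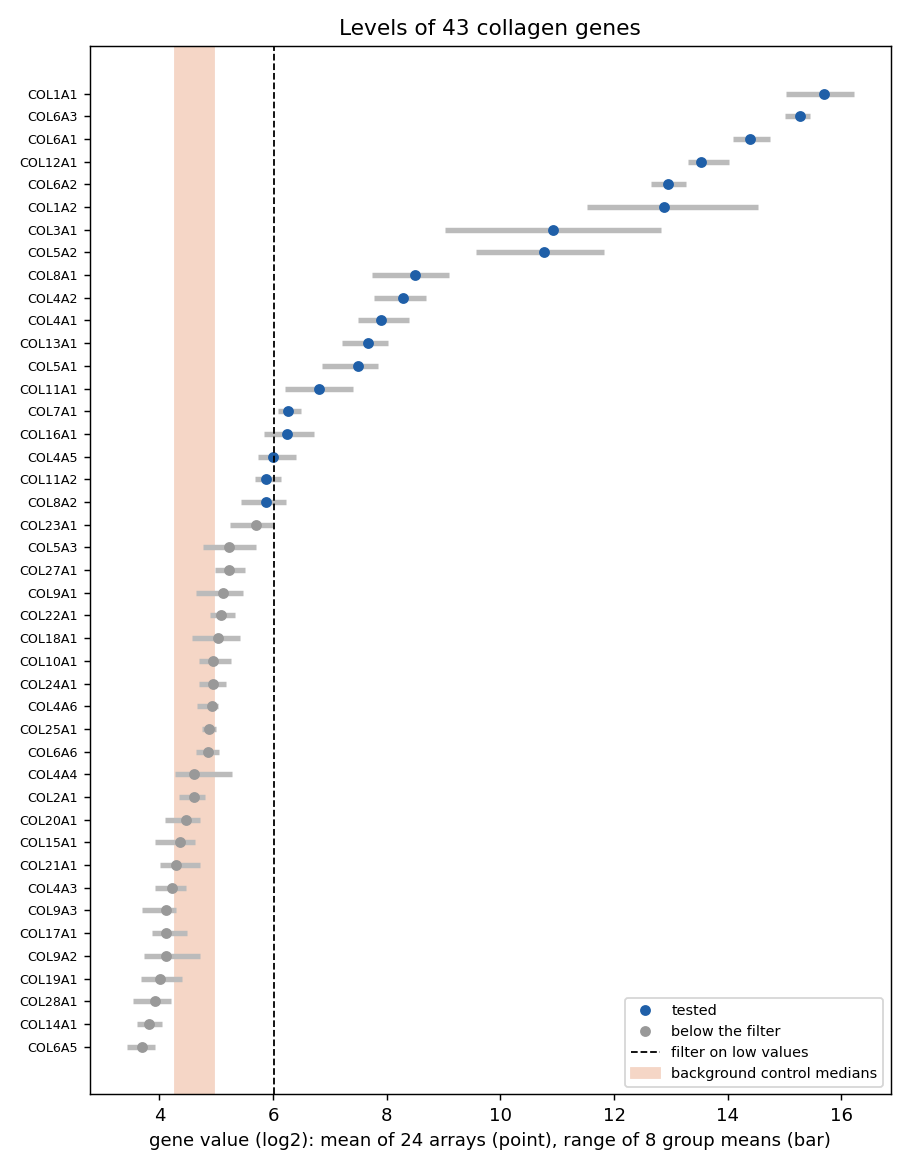
Gene values (log2) of the 43 collagen genes, with the mean of 24 arrays as a point, the range of the 8 group means as a bar, the filter on low values as a dashed line and the range of the background control medians as a shaded band. COL1A1 has the highest mean at 15.70, and the bars of COL1A2, COL3A1 and COL5A2 are the widest among the genes shown.

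The highest mean over all arrays was 15.70 for COL1A1, followed by 15.28 for COL6A3, 14.39 for COL6A1, 13.53 for COL12A1, 12.95 for COL6A2 and 12.88 for COL1A2. These levels belong to different probes and were not compared with each other by a test. COL3A1 and COL5A2 had means of 10.92 and 10.78, and the other 11 tested genes lay lower, down to 5.87 for COL8A2. Near the top of the scale, at or above 19.5, lay 3 of 24 probe sets of COL1A1, 2 of 37 of COL6A3, 1 of 30 of COL3A1 and 1 of 23 of COL6A1 in at least 1 array, and 1 probe set of COL1A1 did so in every array.

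Of the 14 comparisons the one between untreated cells at T16 and at T0 called the most collagen genes. It asks how expression differed between these times after synchronization. Of the genes that rose, 4 encode chains of the fibrillar collagens: COL3A1 rose by 3.34 ± 0.31 (SE), COL1A2 by 3.00 ± 0.25, COL5A2 by 2.15 ± 0.22 and COL1A1 by 1.19 ± 0.16. The type IV gene COL4A5 rose by 0.67 ± 0.21, and COL13A1 fell by 0.81 on the log2 scale. Together 6 of the 19 tested genes were called, 5 higher and 1 lower. Over all genes tested 13.7% were called in either direction, 6.08% higher and 7.59% lower. The median difference of all 43 collagen genes was 0.10, and 29 of them were above 0, beside a median of -0.02 over all 22260 genes.

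COL3A1 encodes the only chain of type III collagen. Its values were 8.96, 9.07 and 9.06 at T0, then 9.50, 9.96 and 9.17 in T4 vehicle, 9.48, 10.50 and 9.96 in T4 0.5 µM digoxin, and 8.89, 9.25 and 10.39 in T4 5 µM digoxin. They were 12.59, 12.11 and 12.42 at T16, 12.29, 11.58 and 12.07 in T20 vehicle, 12.01, 12.32 and 12.13 in T20 0.5 µM digoxin, and 12.86, 12.84 and 12.76 in T20 5 µM digoxin. All 12 arrays of T16 and T20 lay above all 12 of T0 and T4, and the 3 arrays of T20 5 µM digoxin lay above every other array. From T0 (9.03 ± 0.06, SD, n = 3) to T16 (12.38 ± 0.25, SD, n = 3) the adjusted p of limma was 1.923e-07.

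COL1A2 encodes the alpha 2 chain of type I collagen, the most abundant collagen of connective tissue. Its values were 11.44, 11.65 and 11.50 at T0, 11.75, 11.79 and 11.91 in T4 vehicle, 11.44, 11.93 and 11.48 in T4 0.5 µM digoxin, and 11.72, 11.01 and 12.16 in T4 5 µM digoxin. They were 14.86, 14.12 and 14.61 at T16, 13.95, 13.33 and 13.70 in T20 vehicle, 14.09, 13.81 and 13.81 in T20 0.5 µM digoxin, and 14.11, 14.43 and 14.47 in T20 5 µM digoxin. Every late array again lay above every early array. The means were 11.53 ± 0.11 (SD, n = 3) at T0 and 14.53 ± 0.38 (SD, n = 3) at T16, with an adjusted p of 3.415e-08.

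COL5A2 encodes the alpha 2 chain of type V collagen, which lies inside type I fibrils and limits their width. Its values were 9.31, 9.67 and 9.75 at T0, 10.41, 9.58 and 9.86 in T4 vehicle, 10.43, 10.51 and 10.44 in T4 0.5 µM digoxin, and 10.37, 10.09 and 10.61 in T4 5 µM digoxin. They were 12.19, 11.68 and 11.31 at T16, 11.15, 11.16 and 11.02 in T20 vehicle, 11.35, 11.31 and 10.95 in T20 0.5 µM digoxin, and 11.77, 11.82 and 11.88 in T20 5 µM digoxin. The lowest late array, 10.95, lay above the highest early array, 10.61. The T16 mean of 11.73 ± 0.44 (SD, n = 3) stood against 9.58 ± 0.24 (SD, n = 3) at T0, with an adjusted p of 9.003e-07.

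COL1A1 encodes the alpha 1 chain of type I collagen and was already high at the start. Its values were 15.30, 14.79 and 15.01 at T0, 15.56, 15.56 and 15.60 in T4 vehicle, 15.44, 15.41 and 15.42 in T4 0.5 µM digoxin, and 15.25, 15.07 and 15.33 in T4 5 µM digoxin. They were 16.45, 15.95 and 16.27 at T16, 16.18, 16.18 and 16.21 in T20 vehicle, 15.86, 16.10 and 15.86 in T20 0.5 µM digoxin, and 15.96, 15.86 and 16.24 in T20 5 µM digoxin. The late arrays lay above the early ones here too, by a smaller margin. The means were 15.03 ± 0.26 (SD, n = 3) at T0 and 16.22 ± 0.26 (SD, n = 3) at T16, with an adjusted p of 2.838e-05.

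**Figure D2:**
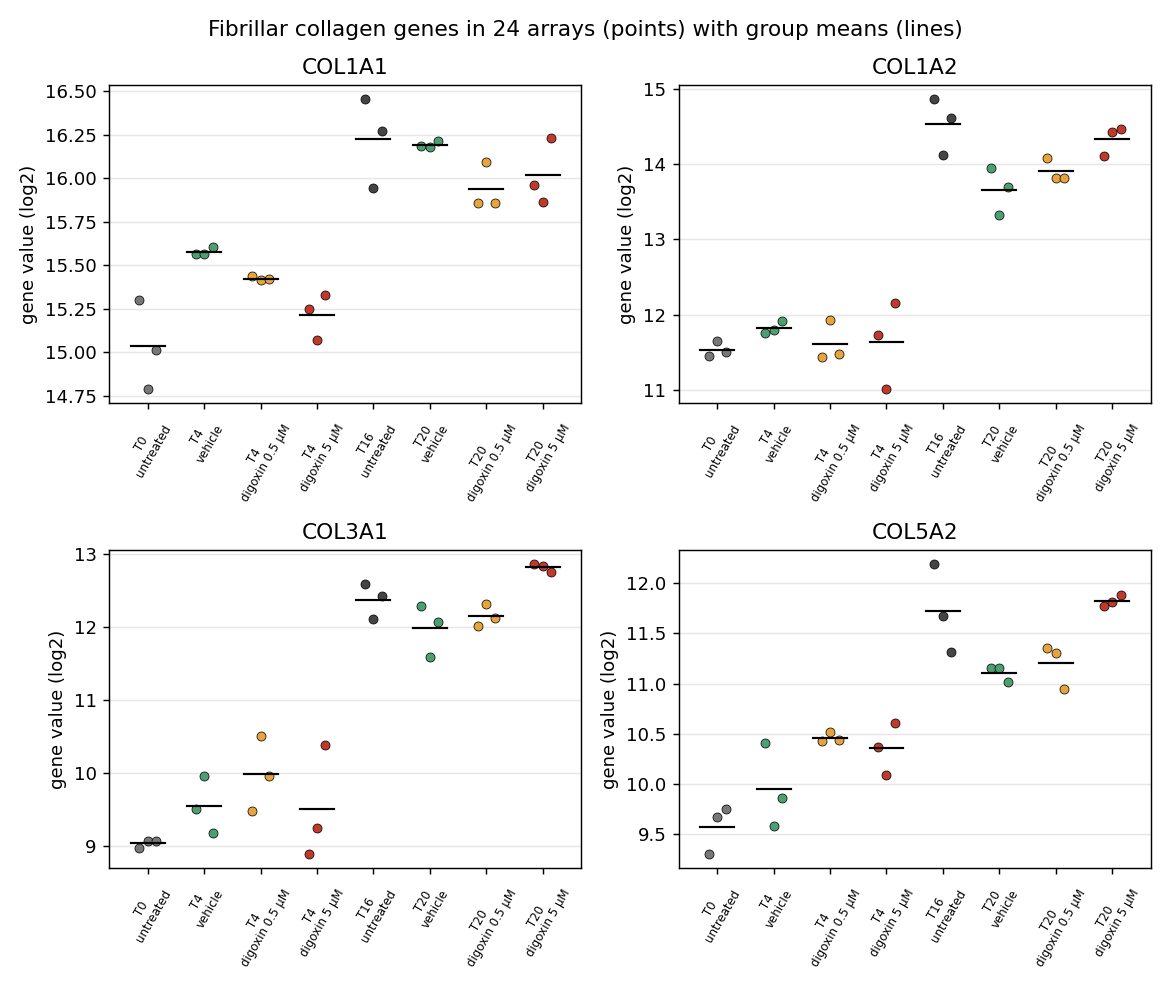
Gene values (log2) of COL1A1, COL1A2, COL3A1 and COL5A2 in each of the 24 arrays (points) by group, with the group mean as a line. In all 4 panels the T16 and T20 arrays lie above the T0 and T4 arrays, and for COL3A1 the T20 5 µM digoxin arrays, from 12.76 to 12.86, are the highest.

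The probe sets of these genes, which lie along exons, mostly moved in the same direction. From T0 to T16, 39 of 40 probe sets of COL1A2 were higher, all 39 by more than 1, and 30 of 30 of COL3A1 were higher, 29 by more than 1. For COL5A2 the count was 30 of 31 and for COL1A1 it was 20 of 24. Probe sets of one gene measure the same RNA and are not replicates. COL3A1 and COL5A2 are neighbouring protein-coding genes on chromosome 2, so 2 of the 4 share a locus.

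**Figure D3:**
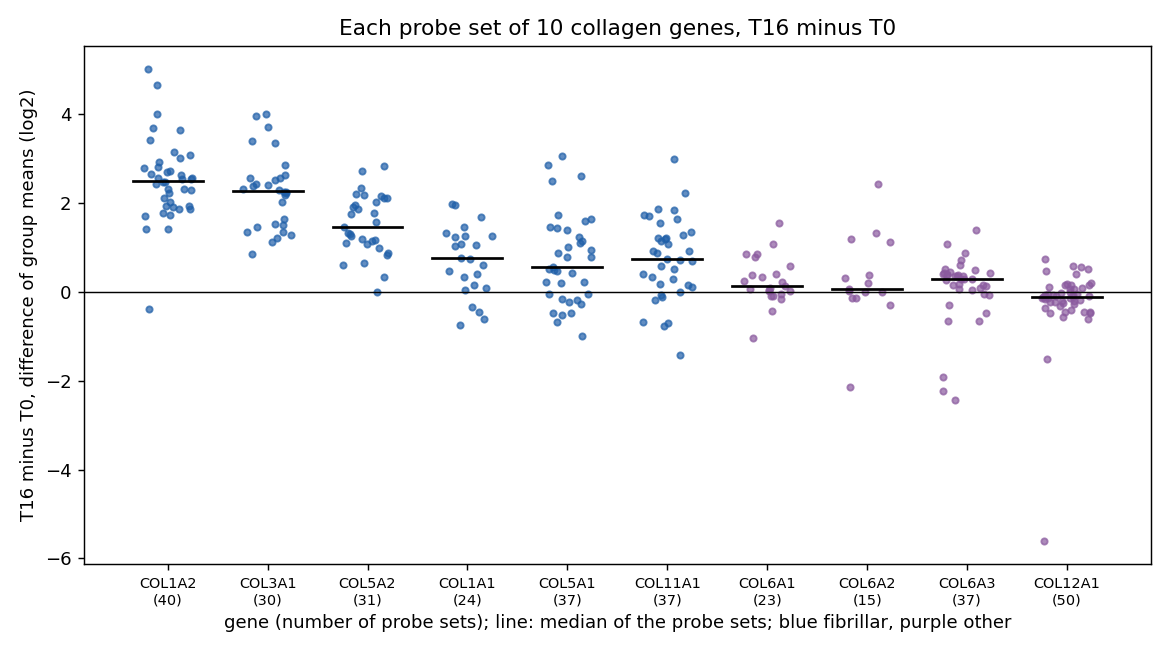
Difference between T16 and T0 (log2) for each probe set (points) of 10 collagen genes, with the median of the probe sets as a line. The lines of COL1A2 and COL3A1 stand at 2.50 and 2.27, and those of COL6A1, COL6A3 and COL12A1 at 0.14, 0.28 and -0.12.

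The alpha 1 chain of type V collagen did not pass in this comparison by the median gene value. COL5A1 differed by 0.67 ± 0.28 (SE, adjusted p = 0.1195), and its T16 arrays lay above its T0 arrays. Among all genes tested 29.5% did not overlap in this comparison, and 13.8% were higher without overlap. The abundant genes of the type VI filaments and the FACIT gene COL12A1 did not pass by the median gene value either. With median polish of the probe sets COL5A1, COL6A1, COL8A1, COL11A1 and COL16A1 were called. They were among 10 collagen genes and 3716 genes in all called by that alternative. The 95% confidence interval of the T16 minus T0 difference was -0.04 to 0.95 for COL6A1, -0.50 to 1.05 for COL6A2, -0.11 to 0.57 for COL6A3 and -0.46 to 0.32 for COL12A1. These intervals lie below the differences of COL1A2, COL3A1 and COL5A2, and the difference between genes was not tested. The 24 genes below the filter differed by -0.65 to 0.53.

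COL4A5 and COL13A1 were the called genes outside the fibrillar class. COL4A5 encodes the alpha 5 chain of basement membrane collagen. Its values were 5.47, 5.79 and 5.94 at T0 and 6.15, 6.75 and 6.31 at T16 (adjusted p = 0.03355), so the T0 arrays lay below the filter. COL13A1 encodes a collagen that spans the cell membrane and is known from cell adhesion sites and the neuromuscular junction. Its values were 7.94, 8.16 and 7.96 at T0 and 7.37, 7.13 and 7.14 at T16 (adjusted p = 0.01004). Its T4 vehicle arrays, at 7.39, 7.38 and 7.27, were also below T0, though that difference missed the threshold (adjusted p = 0.0547). Among all genes tested 11.8% were lower without overlap from T0 to T4 vehicle.

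The bases upstream of COL4A5 and COL13A1 are shown as the upstream sequence of these called genes, and the interval between COL4A1 and COL4A2 as a well-known case of collagen genes that start back to back. The RefSeq promoter table (GRCh38.p14) matched 31 of the 43 genes. COL1A1, COL1A2, COL3A1 and COL5A2 were not among the matched genes, so no stretch is shown for them. The stretches cover up to 250 bases before the start site. Capitals mark 3 motifs, searched on both strands: the letters CCAAT, which read as ATTGG on the opposite strand, the letters GGGCGG, which read there as CCGCCC, and the letters TATAAA, which read there as TTTATA. The marked matches do not overlap. The first stretch is chr13:110307158-110307283 on the plus strand, all 126 bases between the 2 start sites, the second chrX:108439588-108439837 and the third chr10:69801656-69801905, both on the plus strand, which is the strand of COL4A5 and COL13A1.
COL4A1-COL4A2 interval: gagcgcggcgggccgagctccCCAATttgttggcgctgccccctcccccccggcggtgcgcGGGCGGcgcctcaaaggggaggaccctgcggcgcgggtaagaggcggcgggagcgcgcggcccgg
COL4A5: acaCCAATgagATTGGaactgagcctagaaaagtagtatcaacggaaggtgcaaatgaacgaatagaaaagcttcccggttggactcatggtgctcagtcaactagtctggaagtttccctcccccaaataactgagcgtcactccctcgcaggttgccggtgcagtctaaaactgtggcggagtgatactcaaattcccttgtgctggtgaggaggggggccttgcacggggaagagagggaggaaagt
COL13A1: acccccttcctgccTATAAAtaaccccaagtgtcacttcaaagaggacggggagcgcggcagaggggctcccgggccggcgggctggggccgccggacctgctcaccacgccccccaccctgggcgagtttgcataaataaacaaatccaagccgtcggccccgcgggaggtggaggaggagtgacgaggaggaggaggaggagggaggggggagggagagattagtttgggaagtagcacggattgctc

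The COL4A1 to COL4A2 interval holds 1 CCAAT and 1 GGGCGG match, the COL4A5 stretch 2 CCAAT matches and the COL13A1 stretch 1 TATAAA match. Of all 35116 promoters in the table, 32.0% held CCAAT, 42.6% GGGCGG and 10.7% TATAAA in the 250 bases before the start. A match of letters is a description and not a binding site. COL4A1 and COL4A2 encode the 2 chains of the common basement membrane network. Neither was called in any comparison by the median gene value, and their values over the 24 arrays ran from 6.90 to 9.03 and from 7.25 to 9.06. With median polish of the probe sets COL4A1 was called for T4 vehicle minus T0, among 2062 genes in all. By the same alternative COL4A2 was called at T4 with 5 µM digoxin, among 2594 genes in all. COL4A6, which starts 379 bases from COL4A5 on the other strand, stayed below the filter.

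Among vehicle and digoxin cells, T20 was compared with T4 within each treatment, which these arrays allow and which was added after the values were seen. COL3A1 and COL1A2 had the largest differences of the 19 genes in each of the 3 treatments. With vehicle, 4 of 19 genes were called, all higher: COL3A1 by 2.44 ± 0.31, COL1A2 by 1.84 ± 0.25, COL5A2 by 1.16 ± 0.22 and COL1A1 by 0.62 ± 0.16 (adjusted p = 6.386e-05, 0.0001244, 0.004222 and 0.03396). Over all genes 3.18% were called in this comparison, 1.91% higher and 1.28% lower. The COL1A1 call was lost without any one of these 6 arrays (adjusted p from 0.0819 to 0.1027).

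With 0.5 µM digoxin 3 of 19 were called, all higher, beside 3.84% of all genes (2.17% higher and 1.67% lower). COL1A2 rose by 2.29 ± 0.25 and COL3A1 by 2.17 ± 0.31. COL8A1, which encodes a chain of the network under endothelium and cornea, rose by 1.23 ± 0.34 (adjusted p = 0.04554), but its groups overlapped and the call was lost in 6 alternatives: it read 8.39, 7.46 and 7.38 at T4 and 8.94, 8.37 and 9.62 at T20. COL5A2 and COL1A1 differed by 0.74 ± 0.22 and 0.51 ± 0.16 without passing (adjusted p = 0.06261 and 0.07285). With 5 µM digoxin 4 of 19 were called, all higher, beside 7.38% of all genes (3.88% higher and 3.5% lower). COL3A1 rose by 3.31 ± 0.31, COL1A2 by 2.71 ± 0.25, COL5A2 by 1.47 ± 0.22 and COL1A1 by 0.80 ± 0.16. Whether these time differences differ between treatments is the same test as the change of the digoxin effect with time, given below.

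**Figure D4:**
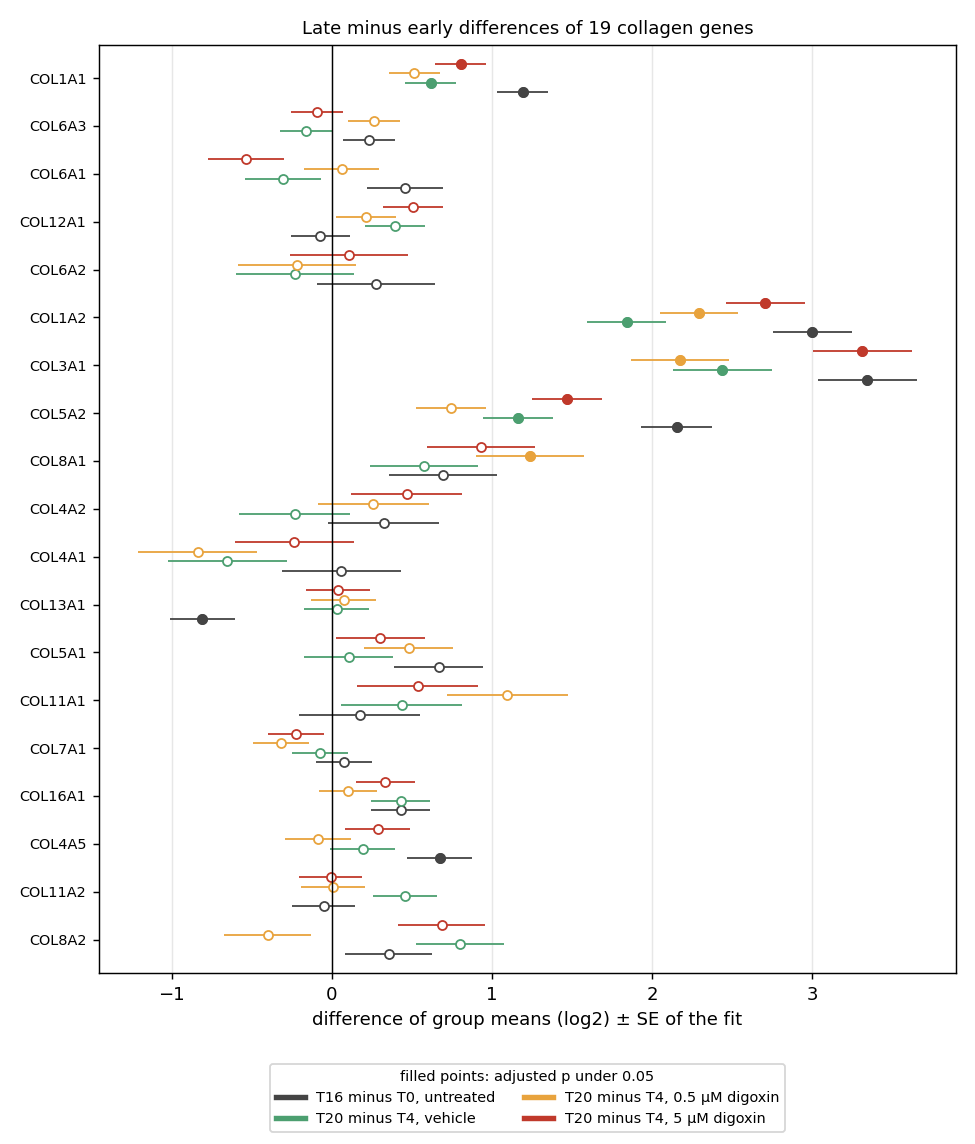
Difference of group means (log2) with the SE of the fit for 19 collagen genes, as T16 minus T0 in untreated cells and T20 minus T4 with vehicle, 0.5 µM and 5 µM digoxin. Filled points passed an adjusted p under 0.05. COL1A2 and COL3A1 lie between 1.84 and 3.34 in all 4 comparisons.

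The shorter steps gave 1 call each among the 19 genes. At an unadjusted limma p under 0.05 there were 7 from T0 to T4 vehicle and 4 from T16 to T20 vehicle. Over all genes 19.2% and 23.1% had such a p. In the first step 6 of 19 were higher and 2 lower without overlap, beside 11.4% and 11.8% of all genes. In the second step 2 were higher and 2 lower, beside 12.3% and 14%. Whether the collagen genes differ from these shares was not tested. From T0 to T4 vehicle 1 of 19 was called, beside 5.71% of all genes (2.43% higher and 3.27% lower): COL1A1 rose by 0.54 ± 0.16 (adjusted p = 0.0487). COL1A2, COL3A1 and COL5A2 differed by 0.29 ± 0.25, 0.51 ± 0.31 and 0.37 ± 0.22 (adjusted p = 0.5797, 0.3938 and 0.3805). From T16 to T20 vehicle 1 of 19 was called, beside 7.83% (4.28% higher and 3.55% lower): COL1A2 fell by 0.87 (SE 0.25, adjusted p = 0.03353). COL5A2 differed by -0.62 ± 0.22 (adjusted p = 0.09126), and COL3A1 and COL1A1 by -0.39 ± 0.31 and -0.03 ± 0.16. The COL1A1 call was lost without T0 replicate 2 or 3 or any T4 vehicle array (adjusted p from 0.1059 to 0.2022) and in 7 alternatives. The COL1A2 call was lost in 3 alternatives, and without T16 replicate 1 or 3 (0.1464 and 0.1055) or T20 vehicle replicate 2 or 3 (0.1437 and 0.07248).

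The T16 minus T0 calls of COL3A1, COL1A2, COL5A2 and COL1A1 held under each of the 11 alternatives and without any single array. That of COL4A5 was lost without T0 replicate 1 or 2 or T16 replicate 2 or 3 (adjusted p = 0.1382, 0.06386, 0.1485 and 0.06347) and in 4 alternatives (highest 0.2768), and that of COL13A1 was lost in 2 (0.08987 and 0.05084). Scaling the arrays to 24 spiked-in poly-A control probe sets in place of quantile normalization gave a median difference of -0.25 over all genes for T16 minus T0. COL3A1, COL1A2, COL5A2 and COL1A1 still stood at 3.15, 2.77, 1.95 and 0.96. A bulk level cannot tell apart fewer cells of a type and less RNA per cell.

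Fibroblast markers differed in level, and some moved with the fibrillar collagens. The group means of VIM, FAP, LUM, FBN1 and DDR2 were all above 13, while S100A4, TCF21 and FBLN1 stayed below the filter, with highest group means of 5.23, 5.63 and 5.07, and PDGFRA (5.77 to 7.40) lay near it. The mean level of the 13 markers ran from 9.84 to 10.08 over the T0 and T4 arrays and from 10.29 to 10.71 over the T16 and T20 arrays. From T0 to T16, 3 of 10 tested were called, all higher, beside 6.08% of all genes: the growth factor receptor PDGFRB by 2.43, LUM by 2.08 and the microfibril gene FBN1 by 0.91. The other tested markers were not called. Among them THY1 had means of 7.51 at T0 and 7.13 at T16, PDGFRA 6.44 and 6.53, and DCN 7.91 and 8.64. So the mean level combines markers that rose with markers that did not. The part of the fibroblast markers in the collagen result was not tested. The mean of the 5 leukocyte markers stayed between 4.23 and 4.52 in the groups, and that of the cardiomyocyte markers between 4.40 and 4.64.

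Genes that act on collagen were counted by the step they serve, from lists of known roles. From T0 to T16, 3 of 16 genes of procollagen folding and modification rose and 0 fell. They were SERPINH1, which encodes the collagen chaperone HSP47, by 1.44 ± 0.27 (adjusted p = 0.001177), the prolyl isomerase gene FKBP14 by 0.55 ± 0.17 and the lysyl hydroxylase gene PLOD3 by 0.67 ± 0.21. Of 8 genes of procollagen processing and crosslinking, PCOLCE, an enhancer of the C-propeptide protease, rose by 1.91 ± 0.56 and the crosslinking oxidase LOX fell by 0.55. One of 7 export genes rose, the coat subunit SEC31A by 0.73 ± 0.19.

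Of 7 matrix proteins that bind collagen, 4 rose and 0 fell from T0 to T16: LUM by 2.08 ± 0.22, SPARC by 1.21 ± 0.15, BGN by 1.14 ± 0.32 and NID1 by 0.67 ± 0.20. Of 13 genes of degradation and its inhibitors 3 rose and 1 fell: the gelatinase MMP2 rose by 1.16 ± 0.21, the collagen uptake receptor MRC2 by 1.03 ± 0.28 and TIMP2 by 0.70 ± 0.21, while TIMP3 fell by 0.99. Of 6 receptor genes ITGA11 rose by 1.53 ± 0.22 and ITGA2 fell by 0.87. Both encode alpha chains of collagen-binding integrins.

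Of 18 regulators of collagen genes or their mRNA, 0 rose and 5 fell. The inhibitory SMAD gene SMAD7 fell by 2.55, CEBPB by 1.63, JUNB by 1.17, LARP6, which encodes a protein that binds the 5′ stem-loop of collagen mRNAs, by 1.11, and ETS1 by 1.01. The share of these lists called is to be read against the 13.7% of all genes called in the comparison.

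Digoxin against vehicle asks how the drug changed expression at each dose and time. At T4, 0 of 19 collagen genes were called with either dose by limma. Over all genes 2.47% were called at 0.5 µM (1.39% higher and 1.08% lower) and 7.14% at 5 µM (3.25% higher and 3.9% lower). At an unadjusted p under 0.05 there were 3 (COL13A1, COL5A2 and COL6A3) and 2 (COL16A1 and COL1A1), beside 14.7% and 21.4% of all genes. At T20 with 0.5 µM digoxin 0 of 19 were called, beside 3.44% of all genes (1.95% higher and 1.49% lower), and 3 had an unadjusted p under 0.05 (COL13A1, COL4A2 and COL8A2), beside 16.4% of all genes. At T20 with 5 µM digoxin 1 of 19 was called, beside 11.4% of all genes (6.09% higher and 5.36% lower), and 5 had an unadjusted p under 0.05, beside 25.6% of all genes. With 19 genes tested, counts of 0 or 1 are too small to be read as a difference from the background. Whether the shares differ from it was not tested.

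The called gene was COL5A2. Its 3 arrays at T20 with 5 µM digoxin lay above its 3 vehicle arrays, with means of 11.82 ± 0.06 and 11.11 ± 0.08 (SD, n = 3 each), a difference of 0.71 ± 0.22 (SE, adjusted p = 0.03889). The call was lost without any one of these 6 arrays (adjusted p from 0.07741 to 0.1094) and in 5 alternatives, of which the one with brighter probe sets called COL1A2 in its place. In the poly-A alternative the median difference of all genes was -0.81 and the COL5A2 difference became -0.064 (adjusted p = 0.8376). Of its 31 probe sets 25 were higher.

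The other called fibrillar genes of the time comparisons did not pass. At T20 with 5 µM digoxin COL3A1 differed by 0.84 (95% interval 0.20 to 1.48, adjusted p = 0.08622) and COL1A2 by 0.68 (0.17 to 1.19, adjusted p = 0.08134), and the groups did not overlap in either gene. Of all genes tested 28.1% did not overlap in this comparison, and 14.7% were higher without overlap. Of their probe sets 19 of 30 and 27 of 40 were higher. At T20 with 0.5 µM digoxin the differences were 0.17 (-0.47 to 0.81) and 0.24 (-0.27 to 0.76), and at 5 µM at T4 they were -0.04 (-0.68 to 0.61) and -0.19 (-0.70 to 0.32). At 0.5 µM at T4 they were 0.44 (-0.21 to 1.08) and -0.21 (-0.72 to 0.30). COL5A2 at T4 differed by 0.51 (0.05 to 0.97) at 0.5 µM and 0.41 (-0.05 to 0.87) at 5 µM, and by 0.09 (-0.36 to 0.55) at T20 at 0.5 µM.

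COL1A1 had a mean below that of vehicle in all 4 digoxin groups and passed in none. The difference was -0.15 (-0.48 to 0.18) at 0.5 µM and -0.36 (-0.69 to -0.03) at 5 µM at T4, and -0.25 (-0.59 to 0.08) and -0.17 (-0.50 to 0.16) at T20. The digoxin arrays lay below all vehicle arrays in the first 3 of these comparisons and overlapped them in the last. Of all genes tested 9.72%, 13.8% and 8.71% were lower without overlap in the first 3. Both doses at a time share a vehicle group. With median polish of the probe sets COL1A1 was called lower in the same 3 comparisons. At T4 most of its probe sets were lower, 21 of 24 at 0.5 µM and 22 of 24 at 5 µM.

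The transmembrane collagen COL13A1, which fell from T0 to T16, was higher with digoxin without passing by the median gene value. It read 7.39, 7.38 and 7.27 in T4 vehicle, 7.93, 7.91 and 7.94 with 0.5 µM and 7.78, 7.58 and 7.81 with 5 µM, so neither digoxin group overlapped vehicle. The differences were 0.58 ± 0.20 and 0.38 ± 0.20 (adjusted p = 0.1573 and 0.2969). Of all genes tested 11.8% were higher without overlap at 0.5 µM, and at 5 µM 27.9% did not overlap in either direction and 14.1% were higher without overlap. At T20 its groups overlapped, with differences of 0.62 ± 0.20 and 0.38 ± 0.20 (adjusted p = 0.1049 and 0.242). With median polish of the probe sets COL13A1 was called at T20 with 5 µM, among 6 collagen genes and 3067 genes in all. The others were COL5A2, COL8A1, COL11A1, COL12A1 and COL16A1. The basement membrane gene COL4A2 had the largest digoxin difference of the 19, 0.92 ± 0.35 at T20 with 5 µM, and did not pass (adjusted p = 0.09602) with overlapping groups.

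The FACIT gene COL16A1 came closest to a call among genes that were lower. At T20 with 5 µM digoxin it differed by -0.55 ± 0.18 (adjusted p = 0.05825) with 36 of 44 probe sets lower, and at T4 by -0.45 ± 0.18 (adjusted p = 0.1463). At T20 it passed with the replicate number as a block (adjusted p = 0.02296), with poly-A scaling (0.0003053), with median polish (0.01231) and without T20 0.5 µM replicate 1 or 2 or T20 5 µM replicate 2 (0.03105, 0.04884 and 0.04903). Without T20 5 µM replicate 1 the adjusted p was 0.2145, the highest over all settings. The median difference of all 43 collagen genes in the 4 digoxin comparisons was -0.01 and 0.13 at T4 and -0.07 and 0.10 at T20, for 0.5 and 5 µM, beside medians over all 22260 genes between 0.00 and 0.03.

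**Figure D5:**
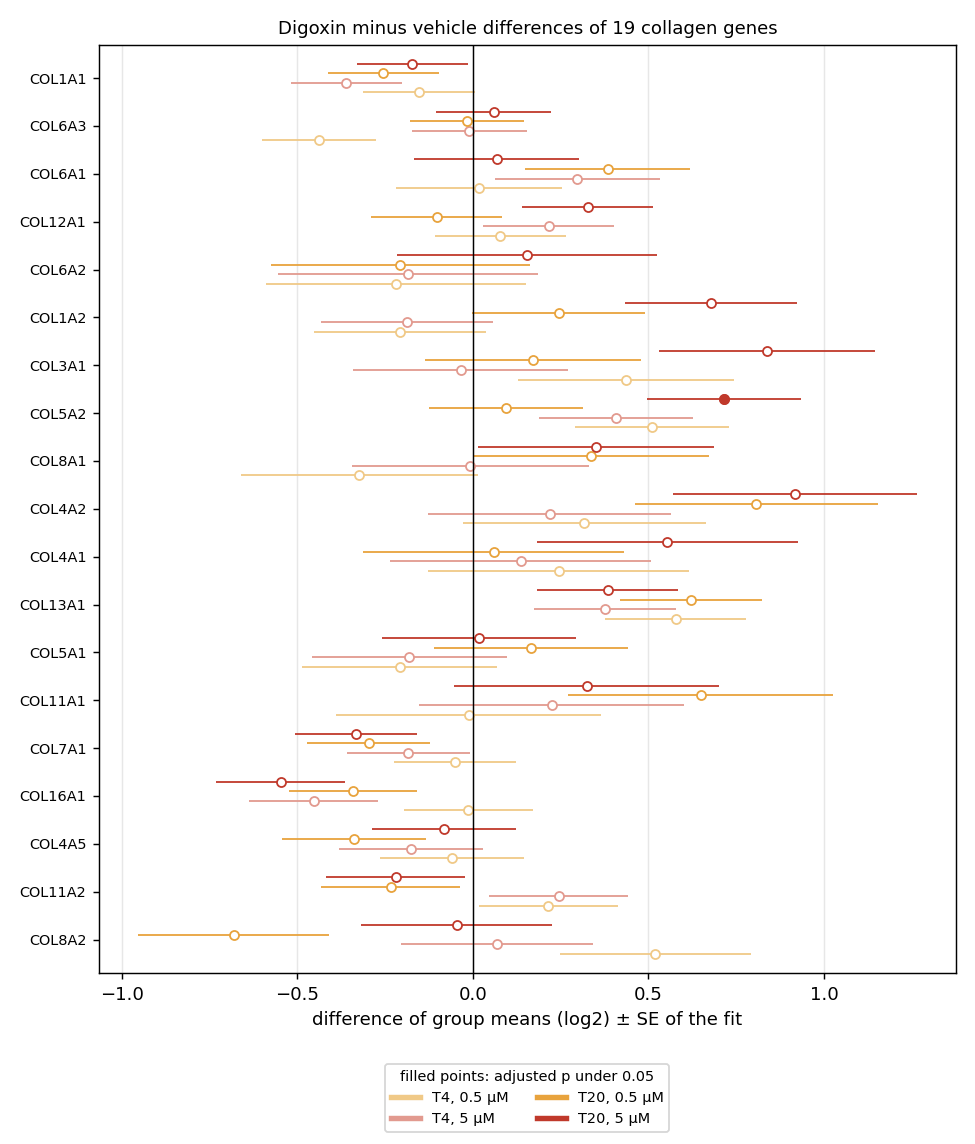
Difference between digoxin and vehicle (log2) with the SE of the fit for 19 collagen genes at 2 doses and 2 times. The filled point, COL5A2 at T20 with 5 µM (0.71), is the one that passed an adjusted p under 0.05.

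The doses and the times were compared directly. Between 5 and 0.5 µM, 0 of 19 collagen genes were called at T4 and 0 at T20, beside 0.0336% and 0.411% of all genes, with 2 and 4 at an unadjusted p under 0.05 (8.06% and 11.1% of all genes). At T4 0.0252% of all genes were called higher and 0.0084% lower. The change of the digoxin effect from T4 to T20 gave 0 of 19 at 0.5 µM and 0 of 19 at 5 µM, beside 0% and 0.118% of all genes (0.0672% higher and 0.0504% lower at 5 µM). At an unadjusted p under 0.05 there was 1 gene at each dose, COL8A2 at 0.5 µM and COL1A2 at 5 µM, beside 5.15% and 7.86% of all genes. For COL1A2 the 5 µM effect was 0.87 ± 0.35 larger at T20 than at T4 (adjusted p = 0.5238).

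Genes that act on collagen were counted in the digoxin comparisons by the same lists. Of 18 regulators 2 rose at T4 and 3 at T20 with 0.5 µM, and 4 rose at T4 with 5 µM, with 0 lower in each. At T20 with 5 µM 4 rose and 1 fell. Over all genes 1.39% and 1.95% were higher with 0.5 µM at T4 and T20, 3.25% were higher with 5 µM at T4, and 6.09% were higher and 5.36% lower with 5 µM at T20. JUNB, an AP-1 subunit, rose by 1.60 ± 0.25 at T4 and 2.22 ± 0.25 at T20 with 5 µM. ETS1 rose by 1.02 ± 0.17 and 0.91 ± 0.17, and NFYA, a subunit of the factor that binds CCAAT, by 0.87 ± 0.20 and 1.03 ± 0.20. SMAD4, the shared SMAD of the TGF-beta pathway, fell by 0.99 at T20.

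Against the same shares of all genes, the other lists at T20 with 5 µM digoxin gave 2 of 13 degradation genes higher and 0 lower, the collagenolytic protease CTSK by 1.23 ± 0.28 and the stromelysin MMP3 by 1.37 ± 0.35. Of 7 matrix proteins 0 rose and TGFBI fell by 1.31, of 16 folding genes 0 rose and the prolyl hydroxylase subunit P4HA2 fell by 0.94, and of 8 processing genes PCOLCE2 rose by 0.77 ± 0.24 and LOXL1 fell by 0.51. The export adaptor KLHL12, of 7 genes, fell by 0.67 at T4 and by 0.48 at T20 with 5 µM, and 0 of 6 receptors were called at T4 or T20. At 0.5 µM the 6 lists other than the regulators gave 0 calls at either time. Of the 10 tested fibroblast markers FBN1 and PDGFRA rose at T20 with 5 µM digoxin, by 0.67 ± 0.16 and 1.33 ± 0.32, and their part in the COL5A2 result was not tested.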

How the data were processed

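RNA of 24 AC16 samples was hybridized to Human Gene 2.0 ST arrays. Per the series' design text, the authors normalized the arrays by Robust Multi-array Average in GIANT, a Galaxy tool suite, so the deposited values are log2 values. Per the submitters' processing notes limma was used. No source used here gives its version or a genome build.

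Values of 352859 deposited probe sets were quantile normalized, since array medians ran from 6.25 to 6.38. Probe sets with 1 symbol (259224) gave 22260 genes by the median. Differences were fitted with limma 3.58.1 in R 4.3.3 on all 24 arrays (16 residual and 4.01 prior degrees of freedom), as tested on simulated data. The number of arrays limits the precision, with a median SE of 0.26. Each of 11 planned comparisons and 3 added ones was adjusted over 11911 genes. Members, lists and tests were chosen with earlier results of these data known.

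Per-array values are given for collagen genes called in a digoxin comparison and for the 4 smallest adjusted p in the time comparisons. COL13A1, COL4A5 and COL8A1 were named after their values were seen. Alternatives were other scalings (as deposited, median centring, poly-A controls), gene values (median polish, brighter probe sets), filters (none, 60th percentile), a replicate block, array weights, fits on only the groups compared, a trended robust eBayes and leaving out each array. Same-numbered arrays did not pair: their deviations correlated between -0.14 and 0.12 over 84 pairs.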

Additional observations from a re-analysis of the deposited data

How the results depend on the processing

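The counts of called collagen genes in the time comparisons from T16 to T0 and from T20 to T4 within each treatment stayed above 0 in every alternative. Several of the counts of 1 gene or less moved. Those between the doses and for the change of the 0.5 µM effect were 0 with median polish and poly-A scaling too. Median polish of the probe sets gave 3 and 5 calls for 0.5 and 5 µM digoxin at T4, 2 and 6 at T20, 8 for T4 vehicle minus T0, 10 for T16 minus T0, 5 for T20 vehicle minus T16, 1 for the change of the 5 µM effect, and 7, 7 and 10 for T20 minus T4 with vehicle, 0.5 and 5 µM. It raised calls over all genes too, from 294 to 1148 and from 851 to 2594 at T4 with 0.5 and 5 µM. At T20 they rose from 410 to 1267 and from 1363 to 3067. For T4 vehicle minus T0 they rose from 680 to 2062, and for T16 minus T0 from 1628 to 3716. For T20 vehicle minus T16 they rose from 933 to 2683, and for the change of the 5 µM effect from 14 to 67. For T20 minus T4 with vehicle, 0.5 and 5 µM they rose from 379, 457 and 879 to 1656, 1978 and 2550. Poly-A scaling gave 2 at T4 with 5 µM, 1 and 10 at T20 with 0.5 and 5 µM (all lower), 0 for T4 vehicle minus T0 and 4 for T20 vehicle minus T16. Its calls over all genes were 1591 at T4 with 5 µM, and 979 and 7075 at T20 with 0.5 and 5 µM. They were 378 for T4 vehicle minus T0 and 2384 for T20 vehicle minus T16. At T20 with 5 µM the median difference of all genes was -0.81 under this scaling. Brighter probe sets gave 1 at T4 with 5 µM, 3 for T4 vehicle minus T0 and 7 for T20 minus T4 with 0.5 µM. Calls over all genes are given here for median polish and poly-A scaling only, so the other counts have no background beside them. For T4 vehicle minus T0 the count was 0 with values as deposited, median centring, no filter, the replicate block, only the groups compared and array weights, and 2 with the filter at the 60th percentile. For 5 µM at T20 it was 0 with no filter, only the groups compared and array weights, and 2 with the replicate block. For T20 vehicle minus T16 it was 0 with no filter and with only the groups compared, and the vehicle T20 minus T4 count was 2 with only the groups compared.

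With 1 array left out the counts ran from 0 to 2 for 5 µM at T20 and for T4 vehicle minus T0, from 0 to 1 for 0.5 µM at T20 and T20 vehicle minus T16, and from 5 to 7 for T16 minus T0. The replicate block, for numbers that do not pair arrays (4 of 24 arrays correlated best with their own number), left 6 calls for T16 minus T0.

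Single differences were followed through the alternatives for a limited set of genes and comparisons, mainly COL1A1, COL1A2, COL3A1 and COL5A2, and the sign of other uncalled differences was not followed. Within that set these changed sign. With poly-A scaling they were COL1A1 0.47 and COL3A1 0.058 for T20 vehicle minus T16, COL1A2 -0.20, COL3A1 -0.24 and COL5A2 -0.31 at T20 with 0.5 µM, and COL1A2 -0.13 at T20 with 5 µM, beside COL5A2 -0.064, whose difference was called. With median polish they were COL1A1 0.031 for T20 vehicle minus T16, COL1A2 -0.19 and COL3A1 -0.13 at T20 with 0.5 µM, COL3A1 -0.0098 at T4 with 0.5 µM and COL5A2 -0.063 for T4 vehicle minus T0. With brighter probe sets they were COL3A1 0.11 at T4 with 5 µM, -0.36 and -0.061 at T20 with 0.5 and 5 µM, and 0.12 for T20 vehicle minus T16. With array weights COL3A1 was 0.0185 at T4 with 5 µM. With 1 array left out COL1A1 ran from -0.17 to 0.083 for T20 vehicle minus T16, COL1A2 from -0.45 to 0.12 and COL3A1 from -0.47 to 0.27 at T4 with 5 µM, COL3A1 from -0.027 to 0.33 at T20 with 0.5 µM and COL12A1 from -0.25 to 0.13 for T16 minus T0. The cause was not tested. COL4A5 and COL16A1 have no value with brighter probe sets or the filter at the 60th percentile. Signal near the filter on low values limits COL4A5, COL7A1, COL8A2, COL11A2 and COL16A1, and signal near the top of the scale limits part of COL1A1.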

Other observations

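Within single genes the probe sets did not all move alike. The median T16 minus T0 difference over the 37 probe sets of COL11A1, which encodes a fibrillar chain best known from cartilage, was 0.74, while the gene value, the median of levels on each array, differed by 0.17. COL11A1 was called higher with median polish and with brighter probe sets, and not with the gene value. At T4 with 5 µM digoxin 34 of 40 probe sets of COL1A2 were lower, with a median of -0.56, beside a gene difference of -0.19. With median polish COL1A1 and COL1A2 were called lower at T4 with either dose.

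One of the 50 probe sets of COL12A1 stood far from the others. It fell by 5.60 from T0 to T16 and was 6.53 higher with 5 µM digoxin than with vehicle at T20, beside medians of -0.12 and 0.27 over the gene's probe sets. COL26A1, which was outside the 43 genes, had group means from 4.58 at T20 with 5 µM digoxin to 5.65 at T4 with 5 µM digoxin, near the background controls.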
